A study of Mus musculus with 45 samples.

Results

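Notch signalling was followed through 10 of its genes, of 53491 genes listed for each library. They were taken as a given list: the ligand genes Dll1, Dll3 and Jag1, the receptor genes Notch1, Notch2 and Notch3, and the effector genes Hes1, Hes5, Hes6 and Hey1. All 10 passed the filter on low counts in every comparison of expression. RNA decay was followed by SLAM-seq: a uridine analogue, 4-thiouridine (4sU), is built into new RNA and later reads as a T-to-C conversion. Wild-type (WT) mouse cortical cells of embryonic stage E11.5, E14.5 or E16.5 were cultured in a neural progenitor medium with bFGF. They received 100 uM 4sU for 20 h and then 5 mM uridine as a chase. RNA was taken after 0, 2, 4, 8 and 12 h of chase. Each of the 15 groups of stage and chase time held 3 biological replicates (A, B and C), 45 libraries in all. A replicate was a pool of dissociated cortices from 7 embryos at E11.5 or from 2 at the later stages, and its 5 wells gave one chase time each. The strain was not given in the sources used here.

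Notch receptors are activated by ligands on a neighbouring cell. Proteolytic cleavage then frees the intracellular part of the receptor, which enters the nucleus and, with the DNA-binding protein RBPJ, turns on genes for transcriptional repressors of the Hes and Hey families. In the embryonic cortex these repressors hold radial glia, the main neural progenitors, in an undifferentiated state, while cells that begin to differentiate express more ligand and signal to their neighbours. Hes1 is known for oscillating expression, which requires an mRNA and a protein that turn over quickly, and its mRNA is a known target of miR-9.

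Matches to the known sites of RBPJ and of miR-9 are shown first, since the effectors that could be searched differ in them. RefSeq promoter windows on GRCm38, the build the study calls mm10, reached from 250 bases before to 50 bases after a start site and were matched by symbol for 8 of the 10 genes. Hes1 and Hey1 had no window in the table and were not searched. The windows were searched on both strands for TGGGAA, the core of the RBPJ site, for its longer form GTGGGAA, which contains it, and for the N box CACNAG, a site of Hes repressors. Hes5 (ENSMUSG00000048001, chr4:154960923-154962371, plus strand) was the only 1 of the 8 with TGGGAA, and both of its matches had the longer form, shown in capitals. CACNAG had 2 matches in Hes6, 3 in Notch1, 1 in Notch2, 1 in Dll1 and 2 in Notch3, and none in Hes5, Jag1 or Dll3. Hes6 and Dll1 each had a further window, at another start site, without a match. The Notch1 matches at offsets -3 and -1 from the start site overlap on opposite strands. The shares that follow are per window, not per gene. Of 32851 promoter windows of this length, 25.6% held TGGGAA, 6.38% held GTGGGAA and 42.5% held CACNAG. The positions below are the windows printed.
Hes5, 83 bases before the start site, chr4:154960830-154960857, plus strand: gccgccgagtGTGGGAAcggccgcggcg
Hes5, 226 bases before the start site, chr4:154960686-154960713, minus strand: tgtccgggctGTGGGAAcgcgctcgccc

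The 3′ UTR, in which sites for microRNAs and for RNA-binding proteins lie, was taken from the longest coding isoform of each gene in a GENCODE annotation of the same build and read on the sense strand. CCAAAGA, which pairs with bases 1 to 7 of miR-9-5p, was found in Hes1 (ENSMUSG00000022528, chr16:30064384-30067796, plus strand) and in none of the other 9 genes. It occurred in 12.7% of 19597 3′ UTRs. The Hes1 3′ UTR, 368 bases long, also held 1 Pumilio element (TGTANATA), which Dll1, Dll3, Jag1, Notch1 and Notch3 held once each and which 22.4% of all 3′ UTRs held. Capitals mark the seed (bases 2 to 8) in the microRNA and the searched letters in Hes1, whose Watson-Crick pairing ends at base 7.
mmu-miR-9-5p: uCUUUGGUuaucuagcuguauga
Hes1, miR-9 match, chr16:30067702-30067729, plus strand: ttatgtgatgCCAAAGAtgtttgaaaat
Hes1, Pumilio element, chr16:30067603-30067630, plus strand: gcactgcattTGTATATAttttatatgt

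Motifs of AU-rich elements, which are known to mark mRNAs for decay, were counted without scaling to the length of the 3′ UTR. The pentamer ATTTA was absent from the 3′ UTRs of Hes1, Hes5 and Hes6 and occurred once in Hey1, against 2 to 10 times in the ligands and 2 to 4 times in the receptors. It occurred in 63.5% of all 3′ UTRs. Lengths were 368, 696, 575 and 1137 bases in Hes1, Hes5, Hes6 and Hey1, and 676, 368 and 1568 in Dll1, Dll3 and Jag1. Notch1, Notch2 and Notch3 had 1628, 2917 and 1000 bases. The longer TATTTAT, which contains ATTTA and occurred in 26.4% of all 3′ UTRs, was present 5 times in Jag1, 4 times in Notch1, once each in Dll1, Dll3 and Notch3, and in none of the 4 effectors or Notch2. One match each of Jag1 and Notch1, the genes with the most, is shown.
Jag1, chr2:137082664-137082691, minus strand: atcatagtttTATTTATatttattgact
Notch1, chr2:26459356-26459383, minus strand: ttttagtattTATTTATgtacttttatt

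Libraries held 15.9 to 43.9 M reads (median 33.0 M) and 228.7 to 629.1 M covered T positions. The summed markers of radial glia stood at 9630 to 10200 cpm (reads scaled to the size of the library) at E11.5. They fell to 3690 to 4280 at E14.5 and 1480 to 1630 at E16.5. At E11.5 Vim held most of this sum (mean 6980 cpm). Of the 6 markers 1, Slc1a3, rose from E11.5 to E14.5 (log2 fold change 1.59). Those of intermediate progenitors summed to 261 to 333, then 308 to 343, then 170 to 202 cpm. Of these 5 markers 2 fell and 2 rose from E11.5 to E14.5. The summed markers of neurons rose from 2760 to 3310, through 5330 to 5990, to 7330 to 7660 cpm. Of these 6 markers 1, Neurod6, fell from E14.5 to E16.5 (log2 fold change -0.20). The dorsal cortex markers Emx1 and Emx2 summed to 217 to 234, then 86.8 to 91.2, then 62.0 to 70.1 cpm, so markers of cortical progenitors and neurons were detected at every stage. Other cells were also sampled: at E11.5 the summed markers of meningeal fibroblasts reached 427 to 659 cpm, against 10.4 to 25.9 cpm at the later stages, and those of mural cells, which are known to express Notch3, reached 49.1 to 54.7 cpm, then 10.1 to 11.4 and 15.1 to 18.9 cpm. No marker of these lists was at 0 in all 9 libraries at 0 h. From E11.5 to E14.5, 4 of the 5 fibroblast markers fell and 1, Dcn, rose (log2 fold change 1.65). Erythroid markers reached 1620 to 3580 cpm at E11.5 and 25.6 to 59.0 cpm later. Endothelial markers, whose cells are known to express Notch1 and Jag1, summed to 1.04 to 4.34 cpm in all 9 libraries at 0 h. Ventral telencephalic markers stood at 249 to 256 cpm at E16.5, against 33.6 to 50.3 cpm before. One pool stood apart: Ttr, a marker of the choroid plexus, reached 279 to 392 cpm in the 5 libraries of E16.5 replicate B and at most 0.134 cpm in those of A and C. Without this replicate 8 members fell from E14.5 to E16.5 in place of 9, Jag1 being lost, and 9 of 10 again carried less label at 0 h. The other results that change without it are given beside their values.

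Most of the Notch genes were lower at each later stage, and no member was higher. From E11.5 to E14.5, at 0 h of chase, 8 of the 10 members fell, in edgeR's quasi-likelihood test at a Benjamini-Hochberg adjusted p under 0.05, against 23.5% of 18408 genes that were lower and 25.1% that were higher. From E14.5 to E16.5, 9 fell, against 25.4% of genes lower and 24.1% higher. Shares of genes in the expression tests include weakly expressed genes. The filter here asked for over 10 covered Ts per library, where the study asked for over 10 reads. The median log2 fold change of the members was -1.18 at the first step and -0.68 at the second, beside -0.01 and 0.00 over all genes tested. Falls past a log2 fold change of -1 were made at the first step by Dll3, Jag1, Notch3, Hes1, Hes5 and Hey1 (8.0% of all genes), and at the second by Notch1, Notch2 and Hey1 (5.92%). The first list depended on the chase time: in the 12 h libraries Hes5 (-1.02), Jag1 (-1.95) and Notch3 (-1.63) passed -1 at this step, and Dll1 (-0.49), Dll3 (-0.55), Hes1 (-0.49) and Hey1 (-0.78) were called with smaller falls than at 0 h, while that of Notch2 was larger (-0.93). At the second step the same 3 genes passed -1 there (Notch1 -1.09, Notch2 -1.16, Hey1 -1.06), with Dll3 at -0.99 and Hes5 at -0.53. In these bulk libraries fewer progenitors and less Notch RNA in each cannot be told apart, and the part of the markers of radial glia, mural cells and fibroblasts in these falls was not tested.

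Among the effectors the largest fall was that of Hes5, a repressor and direct target of the activated receptor. It stood at 51.6, 58.8 and 52.6 cpm in the 3 E11.5 libraries, at 14.4, 12.4 and 12.4 cpm at E14.5, and at 7.76, 6.19 and 7.13 cpm at E16.5. The stages did not overlap. The first step was 3.94-fold (log2 fold change -1.98, SE 0.0987, adjusted p = 5.75e-09) and the second a log2 fold change of -0.90, against -1.02 and -0.53 in the 12 h libraries. Hey1, another repressor of this family, stood at 171, 165 and 159 cpm, then at 53.7, 60.9 and 58.1 cpm, then at 23.1, 21.9 and 23.5 cpm, so that it fell by similar amounts at both steps (log2 fold changes -1.43 and -1.35, adjusted p = 2.93e-09 and 2.34e-08). Hes1 fell from 30.7, 35.2 and 35.1 cpm to 16.3, 18.1 and 15.9 cpm (log2 fold change -1.02, adjusted p = 3.67e-06) and further to 10.7, 11.1 and 11.8 cpm (-0.52). Again no library of one stage reached another stage's range.

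Hes6 was not called at the first step. This member of the family is known to oppose Hes1 and to be induced as cells begin to differentiate. Its libraries overlapped between E11.5 (143, 174 and 124 cpm) and E14.5 (143, 135 and 129 cpm), and the change was -0.02 on the log2 scale (SE 0.0948, edgeR adjusted p = 0.855). Only the step to E16.5 (111, 105 and 98.5 cpm) was called (-0.37, adjusted p = 0.0059). In the 12 h libraries its first step was called as well (-0.17, adjusted p = 0.0225).

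All 3 ligand genes fell at both steps. Dll1, the ligand by which newborn neurons and intermediate progenitors activate their neighbours, stood at 125, 120 and 119 cpm at E11.5, then at 59.6, 66.2 and 57.0 cpm, then at 36.0, 34.1 and 31.0 cpm at E16.5, with no overlap (log2 fold changes -0.95, SE 0.0794, and -0.81). Dll3, a divergent ligand that acts within the cell that makes it, fell from 48.2 to 58.2 cpm to 17.0 to 19.8 and then to 11.8 to 14.8 cpm (-1.43 and -0.52). Jag1 fell from 27.9 to 38.1 cpm to 9.60 to 16 cpm (-1.35, SE 0.2). Its second fall, to 6.32 to 9.56 cpm (-0.54, adjusted p = 0.0378 by edgeR), was lost without E14.5 replicate B (-0.29, adjusted p = 0.206), without E16.5 replicate A (-0.35, 0.18) or B (-0.60, 0.0503), on whole reads in place of covered Ts (0.0619) and in the 12 h libraries (-0.32, 0.239).

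The 3 receptor genes fell at different steps. Notch3 fell mainly at the first: it stood at 59.3, 52.2 and 71.1 cpm at E11.5, at 17.3, 18.2 and 14 cpm at E14.5 (log2 fold change -1.85, SE 0.137, adjusted p = 1.93e-07) and at 12.1, 13.5 and 15.7 cpm at E16.5, which overlapped with E14.5 (-0.22, adjusted p = 0.188). In the 12 h libraries its second step was called (-0.64, adjusted p = 7.61e-05). Notch1, the main receptor of cortical progenitors, did the reverse. Its libraries overlapped between E11.5 (335, 302 and 320 cpm) and E14.5 (264, 342 and 235 cpm; log2 fold change -0.14, adjusted p = 0.34), and it stood at 132, 144 and 135 cpm at E16.5 (-1.03). Without E14.5 replicate B, its highest E14.5 library, the first step was called (-0.30, adjusted p = 0.00842). Notch2 fell at both steps, from 148 to 172 cpm to 101 to 114 cpm and then to 43.7 to 45.5 cpm (-0.55 and -1.25). Compared over both steps together, E11.5 with E16.5, each of the 10 genes was lower without overlap. The share of all genes that did so was not counted, so this describes the members only. The mural markers, of which 5 of 5 tested fell at the first step (median log2 fold change -1.91) and 3 rose at the second, moved with Notch3 at the first step only, and their part in it was not tested.

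**Figure D1:**
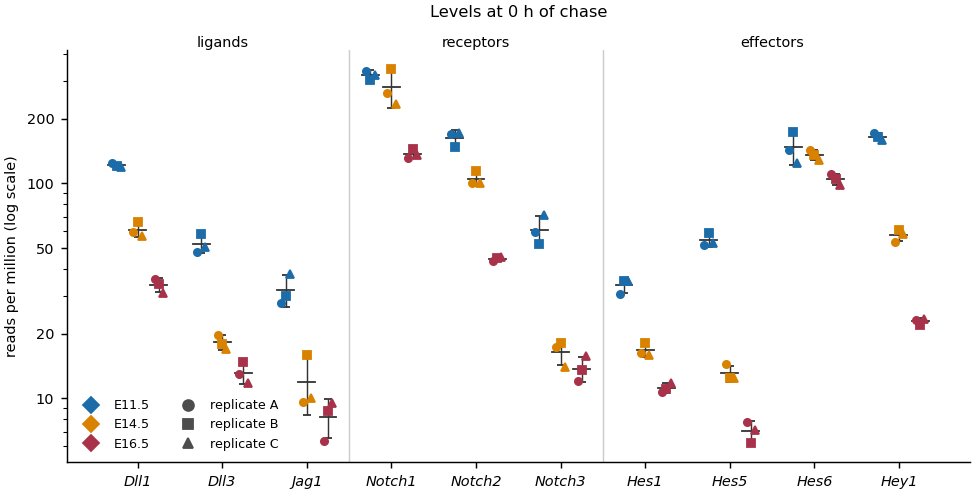
Expression of the 10 Notch genes at 0 h of chase in cpm (log axis) by stage, with 1 point per library (3 per stage), a horizontal line at the mean and bars of 1 SD. Hes5 and Hey1 step down without overlap at both stage steps, Notch1 and Hes6 overlap between E11.5 and E14.5, and Notch3 overlaps between E14.5 and E16.5.

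Other genes of the pathway did not share one direction. Of 49 further ligands, modifiers, proteases, nuclear partners, targets and antagonists, 47 passed the filter. At the first step 21 fell, 12 rose and 14 were not called, against 23.5% of all genes lower and 25.1% higher. At the second 15 fell, 19 rose and 13 were not called, against 25.4% lower and 24.1% higher. Falls past a log2 fold change of -1 were made by 3 of the 47 at the first step (8.0% of all genes) and by 5 at the second (5.92%). Among the glycosyltransferases, which tune how receptors respond to each ligand, Lfng and Mfng fell past a log2 fold change of -1 at the second step (-1.07 and -1.05), as did the coactivator Maml2 (-1.18) and the targets Hey2 (-1.55) and Nrarp (-1.05), a feedback inhibitor. Hey2 had risen at the first step (1.58). The target Heyl did the reverse, at -4.62 and then 2.75. Both stood at low levels, with means of 0.737, 2.13 and 0.77 cpm for Hey2 and 3.06, 0.136 and 0.825 cpm for Heyl at the 3 stages. The noncanonical ligand Dlk1 and the coactivator Maml3 fell at the first step (-4.42 and -1.03).

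Rises past a log2 fold change of 1 were made by 6 of the 47 genes at the first step (8.14% of all genes) and by 9 at the second (7.19%). By list they came at the second step to 3 of 6 ligands, 2 of 4 ligand ubiquitin ligases and 3 of 8 genes of receptor turnover and antagonism, and 1 of 3 tested targets. The ligand Dll4 (1.77), Dlk2 (2.36), Neurl1b (1.43), the corepressor Tle2 (1.35) and Dtx1 (2.11) rose at the first step. Several of these also stood at low levels. The E11.5 and E14.5 means were 2.08 and 6.75 cpm for Dll4, 0.566 and 2.67 for Dlk2, and 1.53 and 3.8 for Tle2. Jag2 (2.01), Dlk2 (2.05), Cntn1 (1.84), Neurl1a (1.16), Neurl1b (1.05), Dtx1 (1.26), Dtx3 (1.10) and Dtx4 (1.41) rose at the second. All 8 proteases stayed within a log2 fold change of 1 at both steps. Of these 8, 2 were lower and 2 higher at the first (23.5% and 25.1% of all genes). At the second 1 was lower and 1 higher (25.4% and 24.1%).

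The effectors Hes1 and Hes5 had among the shortest half-lives of all transcripts at the early stages. A half-life is the time in which the conversion rate of a gene, the share of covered Ts read as C, falls to 50% of its value at 0 h. For Hes1 it was 1.94, 1.59 and 1.76 h in the E11.5 replicates, and for Hes5 2.04, 1.84 and 1.54 h, where the median over 10858 transcripts was 4.43 h. Only 36 transcripts were shorter-lived than Hes1 and 46 than Hes5. At E14.5, where the median was 4.60 h over 10686 transcripts, the values were 1.50, 1.14 and 3.09 h for Hes1 and 1.27, 2.31 and 1.73 h for Hes5, with 70 and 35 transcripts shorter-lived. One replicate, C, set Hes1 apart there. At E16.5 the general median was 3.48 h, and both genes were closer to it, Hes1 at 3.29, 2.61 and 1.70 h and Hes5 at 2.32, 2.92 and 1.51 h, with 2681 and 1718 of 11850 transcripts shorter-lived.

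Hey1 and Hes6 were longer-lived. Hey1 had mean half-lives of 3.22 ± 0.605, 3.01 ± 0.389 and 2.65 ± 0.837 h at the 3 stages (SD, n = 3), and Hes6 4.13 ± 0.571, 4.00 ± 0.367 and 3.50 ± 0.318 h, near the median at each. In all 9 replicates Hes6 outlived Hes5, and in all but E16.5 A it outlived Hes1. Hes1 was shorter-lived than Hes5 in 4 of 9. With the straight-line fit described below the order of Hes6 and Hes5 turned round, with means of 4.66, 4.55 and 3.81 h for Hes6 against 5.49, 4.75 and 5.62 h for Hes5.

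Of the receptors, Notch1 and Notch2 were short-lived and Notch3 was not. Notch1 had half-lives of 2.51, 3.23 and 2.44 h in the E11.5 replicates, of 2.36, 2.31 and 2.69 h in those of E14.5, and of 2.45, 2.33 and 2.46 h in those of E16.5, while Notch2 had means of 2.94, 3.08 and 2.44 h. Notch3 had 5.54, 5.84 and 4.05 h, then 6.61, 6.67 and 6.33 h, then 5.29, 4.90 and 8.11 h. In the main fit it was the longest-lived receptor in 9 of 9 replicates and the longest-lived member in 8 of 9. Its percentile was 66.7, 84.2 and 90.7 at the 3 stages. The R2 of its fits was low in E14.5 A, B and C (0.683, 0.702 and 0.757) and in E16.5 C (0.731). With the straight-line fit described below, the mean of Notch3 at E11.5 was below that of Notch1. The part of mural cells in its half-life was not tested.

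The ligands differed in half-life among themselves as well. Dll1 was also short-lived, at 2.31, 2.61 and 1.76 h, then 1.78, 1.98 and 1.95 h, then 1.37, 1.58 and 1.69 h, the last the lowest mean of any member at E16.5. Jag1 decayed with a mean of 2.55 ± 0.493 h (E11.5), then 1.97 ± 0.411 h (E14.5). At E16.5 its replicates ranged from 1.50 to 4.73 h, and B failed the filter on the fit (R2 = 0.509). At E11.5, 225 transcripts were shorter-lived than Dll1. Dll3 was longer-lived, with means of 4.72, 4.26 and 3.18 h. Below the stage median lay 8, 9 and 8 of the 10 members. Of the other pathway genes 25 of the 35 measured did so at E11.5, 24 of 36 at E14.5 and 28 of 42 at E16.5, and the E11.5 values ran from Maml1 (2.07 h) to Dtx3 (8.99 h).

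**Figure D2:**
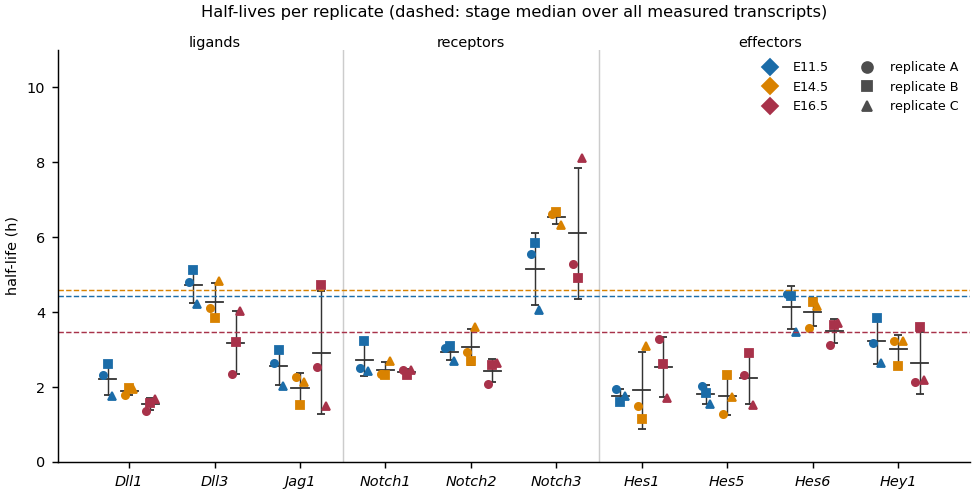
Half-life in hours of the 10 Notch genes by stage, with 1 point per replicate (3 per stage), the mean and SD, and a dashed line at the median of all transcripts of that stage. Hes1, Hes5 and Dll1 lie below the stage median in every replicate and Notch3 lies above it in all but E11.5 C, while replicates scatter most in Hes1 at E14.5 and in Notch3 and Jag1 at E16.5.

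Set against the receptors in each replicate, Hes1 and Hes5 were both shorter-lived than all 3 receptor genes in 6 of 9 replicates. The exceptions were E14.5 replicate C and E16.5 replicates A and B. This order depended on how the curve was fitted. The main fit follows the study in fixing the curve at the measured 0 h value. With a straight line through the log rates, whose starting level is free, the order held in 0 of 9 replicates, and at E11.5 the mean half-lives became 4.86 h for Hes1, 5.49 h for Hes5, 4.92 h for Notch1 and 4.35 h for Notch3. Below the stage median then lay 4 members at the first stage, 9 at the second and 0 at the third. With a background rate subtracted, estimated as the 1st percentile over genes of the 12 h rates (0.0668 to 0.0965%), the order held in 6 of 9 again, with Hes1 at 1.31, 1.48 and 1.97 h and Notch3 at 4.46, 5.74 and 5.55 h. No unlabelled library was used here, so the background itself was not measured.

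The label left after 2 h, which needs no curve, showed where these fits part. At E11.5 Hes1 kept 36.9, 31.4 and 38.6% of its 0 h conversion rate and Hes5 42.0, 36.7 and 35.4%, against 54.4, 61.9 and 56.9% for Notch1 and 94.7, 96.8 and 91.3% for Notch3. The libraries as a whole kept 82.3, 87.3 and 85.3%. No Hes1 or Hes5 replicate reached any receptor there. Over all 9 replicates both effectors kept less than every receptor in 7, the exceptions being E14.5 C and E16.5 A, in which Hes1 kept 61.3 and 66.9%. Notch3 kept 119 and 123% in E14.5 replicates A and B and 123% in E16.5 C, a rise above its own 0 h value. Dll1 kept between 34.1 and 48.2% in all 9, a range like that of Hes5 (33.8 to 48.5%).

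After 4 h the curves of the short-lived genes flattened. At E11.5 Hes1 kept 21.2 to 25.9% of its label at 4 h and 12.0 to 15.6% at 12 h, and Notch1 24.3 to 32.2% and 14 to 19.9%, ranges that by then lay close together or overlapped. Late rates also rested on few reads. Hes1 at E16.5 had 28 to 64 converted Ts at 0 h and 4 to 7 at 12 h, and Hes5 22 to 37 and 6 to 13. The Hes1 rate in E16.5 replicate A was 0.764% at 0 h (exact Clopper-Pearson 95% interval 0.509 to 1.10%) and 0.163% at 12 h (0.0600 to 0.355%). Over the E16.5 replicates the Hes1 rates at 12 h were 0.163 to 0.250%. The background estimate was the 1st percentile of such rates over genes, so most genes must lie above it. A comparison with it therefore decides nothing, and the interval at 12 h in replicate A included the estimate for A, 0.0726%. These intervals cover counting error only, and Ts of one read are not independent.

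**Figure D3:**
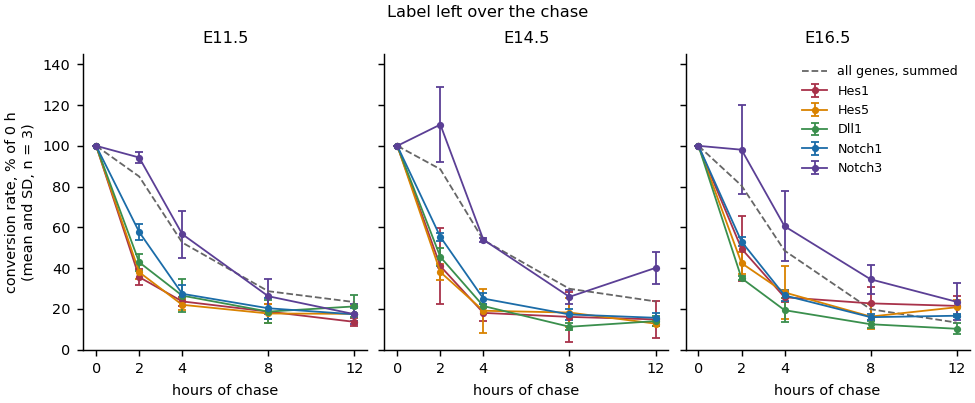
Label left, as a percentage of the 0 h conversion rate, against hours of chase (0 to 12 h) for Hes1, Hes5, Dll1, Notch1 and Notch3 at each stage, as means and SD of 3 replicates, with the library as a whole as a dashed line. Hes1, Hes5, Dll1 and Notch1 keep less label at 2 h than the library at every stage, and Notch3 keeps more.

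Between stages no member was called for a change of relative half-life, which does not show that it stayed the same. Half-lives were scaled to z-scores within each replicate, because the general median differed between stages, and compared with limma over 9505 transcripts. Of the 9 members tested 0 were called, against 3.15% of all transcripts, a share too low for this count to set the members apart. Jag1 was not tested because of the failed fit. An unadjusted p under 0.05 was reached by 2 of the 9, Notch1 and Hes5, against 21.7% of all transcripts. In limma their unadjusted p was 0.0187 and 0.046. The straight-line fit, in which 6 members could be tested, called 1 of them, Notch1 (higher at E16.5 than at E11.5 by 0.96 SD, adjusted p = 0.00546), against 5.17% of 8635 transcripts. The largest difference in z-score between E11.5 and E16.5 in the main fit was that of Notch3 (1.20, SE 0.437, adjusted p = 0.157 for this contrast).

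How much label a gene carried at the end of the 20 h pulse did differ between stages. The summed rate of the whole library was 1.18 ± 0.23% at first, 1.10 ± 0.0763% at E14.5 and 1.86 ± 0.0573% at E16.5 (SD, n = 3), while the rates of Hes1 and Hes5 did not rise with it. Hes5 had 1.18, 1.12 and 1.59%, then 1.44, 1.35 and 1.10%, then 0.919, 0.858 and 1.10%. Hes1 had 1.02, 1.07 and 1.30%, then 1.29, 1.52 and 0.865%, then 0.764, 0.944 and 1.14%. Relative to the library, 9 of the 10 members carried less label at E16.5 than at E14.5 (limma, adjusted p under 0.05), against 13.8% of 12522 genes, and none differed between E11.5 and E14.5, where 0.192% of genes did. At an unadjusted p under 0.05, Dll1, Jag1 and Notch1 differed in that comparison, against 13.1% of genes.

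The fall was largest in Hes5, by 1.20 on the log2 scale relative to the library (limma adjusted p = 0.000319), in Hes1 by 1.11 (0.00494) and in Notch1 by 0.96 (9.45e-05). Notch1 had log2 values relative to the library of 0.15, 0.26 and 0.12 at E14.5 and of -0.74, -0.79 and -0.82 at E16.5, so the stages were far apart. Jag1 fell by 0.81, Notch2 by 0.72, Hey1 by 0.70, Notch3 by 0.62, Dll1 by 0.58 and Hes6 by 0.49. Dll3 stood at -0.45 (adjusted p = 0.0582). It was called without E14.5 replicate B (-0.56, 0.036) or E16.5 replicate A (-0.55, 0.0407) and among genes with over 2000 covered Ts (0.0378). It was also called with the replicate letter as a block (0.0194), but a letter does not pair pools between stages. The gene count behind this comparison, 2146 in either direction, was 1407 without E14.5 replicate B and 1378 without E16.5 replicate B. Among the markers, 6 of 6 of radial glia (median -0.92) and 5 of 5 of intermediate progenitors (-0.74) fell with the members, and of the neuronal markers 0 of 6 fell and 4 rose (median 0.23). Their part in the members' fall was not tested.

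**Figure D4:**
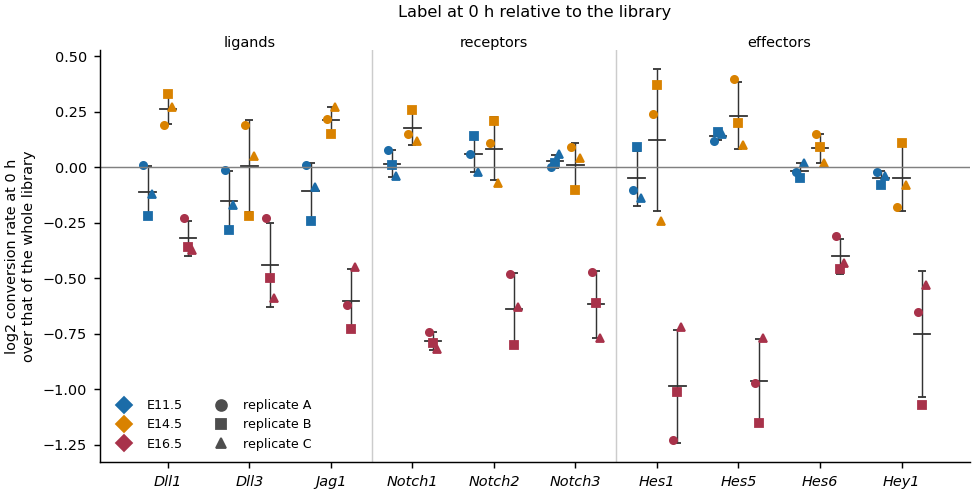
Conversion rate at 0 h of chase relative to the whole library (log2) for each Notch gene by stage, with 1 point per replicate (3 per stage), the mean and SD. All 10 genes lie below 0 in each E16.5 replicate, with the lowest means in Hes1 and Hes5, and around 0 at E11.5 and E14.5.

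The levels themselves moved during the chase, and in opposite directions at different stages for Hes5. At E11.5 it fell from 51.6, 58.8 and 52.6 cpm at 0 h to 40.3, 28.9 and 35.0 cpm at 12 h (log2 fold change -0.44, edgeR adjusted p = 0.00969), a call lost without replicate B (-0.26, 0.168). At E14.5 it rose from 14.4, 12.4 and 12.4 cpm to 21.1, 17.2 and 18.4 cpm (0.54, adjusted p = 0.00237), and at E16.5 from 7.76, 6.19 and 7.13 cpm to 12.8, 13.1 and 13.3 cpm (0.90, adjusted p = 3.37e-05). The libraries at 0 and 12 h did not overlap at any stage. The difference between the changes at E16.5 and E11.5 was a log2 of 1.33 (SE 0.147, edgeR adjusted p = 2.68e-05), and between E14.5 and E11.5 it was 0.94 (0.000655).

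Hey1 turned in the same sense as Hes5. It fell at E11.5 from 159 to 171 cpm to 94.7 to 101 cpm (log2 fold change -0.58) and rose at E16.5 from 21.9 to 23.5 cpm to 27.5 to 29.7 cpm (0.37), a difference of 0.95 (adjusted p = 4.45e-06 by edgeR). At E16.5 it was also the only member called at 2 h (0.24, adjusted p = 0.016), lost without A (0.0853), B (0.158) or C (0.221). The share of genes called at 2 h was 1.33% (E11.5), 1.38% (E14.5) and 5.8% (E16.5), and an unadjusted p under 0.05 was reached by Dll1, Notch2 and Hes5 at E11.5 (11.8% of genes) and by Hey1 at E14.5 (13.6%). With the pool as a block, the labels' own pairing of wells, Dll1 at E11.5 (-0.29, adjusted p = 0.0107) and Hey1 at E14.5 (0.20, 0.024) were called at 2 h as well. Dll1 was also called there by DESeq2 (adjusted p = 0.00898) and on whole reads (0.0278).

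Hes1 was lower at 12 h than at 0 h at every stage. At E11.5 its mean went from 33.7 ± 2.53 cpm at 0 h through 30.2, 24.6 and 19.4 cpm to 14.9 ± 1.30 cpm at 12 h (SD, n = 3; log2 fold change -0.97, edgeR adjusted p = 2.36e-06). At E14.5 it fell from 15.9 to 18.1 cpm to 11.0 to 13.8 cpm (-0.43, adjusted p = 0.0488), a call lost without replicate A (0.277), B (0.129) or C (0.0555). It did not fall steadily there: all 3 pools stood higher at 2 h (17.8, 20.7 and 18.1 cpm) and 4 h (17.6, 21.1 and 18.9 cpm) than at 0 h (16.3, 18.1 and 15.9 cpm). At E16.5 it fell from 10.7 to 11.8 cpm to 7.51 to 8.69 cpm (-0.42, 0.0115), lost without A (0.084) or C (0.075). The fall was smaller at E14.5 than at E11.5 by 0.51 (adjusted p = 0.0346) and at E16.5 than at E11.5 by 0.54 (0.0198). Without one pool, the lowest and highest of the first difference were 0.39 and 0.58 and of the second 0.47 and 0.62. The first was lost without E11.5 B (adjusted p = 0.123) or C (0.13), E14.5 A (0.0509) or C (0.187) and E16.5 A (0.0513) or C (0.0527), and the second without E11.5 B (0.0755) or C (0.0775) and E16.5 A (0.0619) or B (0.102).

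In all, 5 members fell and 1 rose by 12 h at E11.5, against 9.83% of genes lower and 13.2% higher. At E14.5, 2 fell and 3 rose (7.41% and 7.64% of genes), and at E16.5, 2 fell and 3 rose (12.0% and 14.2%). At E11.5 Dll1 (-0.40) and Notch1 (-0.28, adjusted p = 0.0111) were also lower and Notch3 was higher (0.43, adjusted p = 0.00525). The Notch1 call was lost without A (0.0926) or B (0.0656), and that of Notch3 without A (0.0832) or B (0.0802). The count of genes called at E11.5, 4122, was 1619 without A and 1443 without B.

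At E14.5 Dll3 (0.75, adjusted p = 0.000499 by edgeR) and Notch3 (0.67) were higher and Notch2 (-0.39) was lower. Dll3 went from 17.0 to 19.8 cpm at 0 h to 28.7 to 32.9 cpm at 12 h, with no overlap. Notch3 was lost without A (0.0846) or B (0.0582) and Notch2 without B (0.147). Of the 2702 genes called at E14.5, 951 were called without A, 750 without B and 1735 without C, and 4966 with the pool as a block, in which Jag1 was lower too (-0.71, adjusted p = 5.38e-05). It was also called with no filter on low counts (0.0108).

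At E16.5 Notch2 was lower (-0.30) and Dll1 higher (0.24, adjusted p = 0.0491 by edgeR), the latter lost without A (0.132), B (0.092) or C (0.202), under another normalization (RLE, 0.0505) and on whole reads (0.083). With the pool as a block Dll3 (0.25, adjusted p = 0.0233) and Notch3 (0.25, 0.0363) rose and Jag1 fell (-0.49, 0.000279). Jag1 was also called lower by DESeq2 (0.0289) and without replicate C (-0.59, 0.038). The 4724 genes called at E16.5 were 2577 without A, 2900 without B and 2746 without C. Levels were therefore not constant over the hours in which the label was followed.

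**Figure D5:**
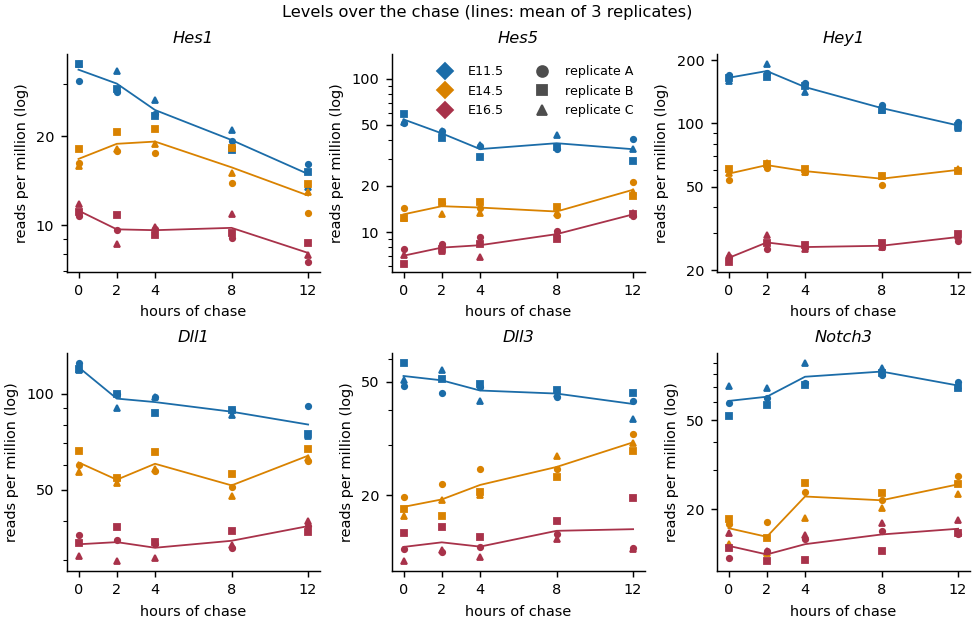
Expression of Hes1, Hes5, Hey1, Dll1, Dll3 and Notch3 in cpm (log axis) against hours of chase (0 to 12 h) at each stage, with 1 point per library and a line through the means of 3 replicates. Hes1 ends below its 0 h level at all stages, after higher values at 2 and 4 h at E14.5, whereas Hes5 and Hey1 end below their 0 h level at E11.5 and above it at E16.5.

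The change over 12 h differed between stages for 6 members from E11.5 to E14.5, against 5.32% of 17224 genes, for 4 from E11.5 to E16.5 (7.36%), and for 0 from E14.5 to E16.5 (0.43%), at which 4 members, Dll3, Notch3, Hes5 and Hey1, had an unadjusted p under 0.05 (11.4% of genes). With the pool as a block Dll3 (-0.48, adjusted p = 0.0259), Notch3 (-0.39, 0.041) and Hey1 (0.31, 0.0342) were called for E14.5 to E16.5. This fit also called Jag1 for E14.5 against E11.5 (-0.63, adjusted p = 0.00481) and Dll3 (0.38, 0.0314) and Notch2 (-0.29, 0.0369) for E16.5 against E11.5. Beside the effectors above, the members called from E11.5 to E14.5 were Dll1 (0.45), Dll3 (0.86) and Notch2 (-0.40), and from E11.5 to E16.5 Dll1 (0.63, adjusted p = 0.00104). Without one pool, calls from E11.5 to E14.5 were lost for Dll1 (without E11.5 B, adjusted p = 0.0688, or E14.5 C, 0.0627), Dll3 (E14.5 C, 0.059) and Notch2 (E11.5 A, 0.0677, or B, 0.0781, and E14.5 B, 0.123, or C, 0.0534). Notch2 was called from E11.5 to E16.5 without E14.5 A (-0.33, 0.0323) or B (-0.33, 0.029).

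The genes whose levels were most like those of each member over the 45 libraries, by Pearson's r of log2(cpm + 1) among 11496 genes with a mean of at least 5 cpm, were mostly matched very closely. These values describe 3 stages at 5 chase times, so that any gene falling across the stages scores highly, and they carry no test. Hes5 was most like Acsf2 (r = 0.969), Ralb and Metrn (both 0.968), and Hey1 like Stk39 and Jpt2 (both 0.989) and Sall1 (0.987). Dll1 shared Sall1 (0.979) and Stk39 (0.976) with Hey1, after Cdca7l (0.98). Hes1 was matched less closely, by Gm35040 (0.95) and Rabl3 (0.948), and Hes6 least, by Gm5841 (0.941), Avpi1 (0.94) and H2ax (0.937). Dll3 was most like Dmrta1 (0.974), Axl (0.973) and Pgd (0.971), and Jag1 like Tle4 (0.957), Zic2 (0.956) and Sparc (0.955). For the receptors they were Heg1 (0.974), Diaph2 (0.964) and Hk2 (0.961) with Notch1, Ptbp1 (0.992), E130114P18Rik and Gtse1 (both 0.99) with Notch2, and Fgd6 (0.982), Xrcc1 (0.981) and Foxo4 (0.98) with Notch3.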

How the data were processed

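SLAM-seq libraries (stranded mRNA kit) of 3 stages, 5 chase times and 3 replicates were analysed from 9 tables, one per stage and replicate. The authors aligned reads with SlamDunk to mm10 and summed covered and converted Ts over GENCODE exons per gene. Covered Ts were deposited as raw counts. Conversion rates, converted over covered Ts, were deposited as fractions (percentages in the text). Levels were deposited in CPM; the total they refer to exceeds the reads listed. In all libraries 100% of CPM values were whole multiples of one read (tolerance 0.01 reads), so whole reads were recovered for an alternative test. Half-life (h), as deposited by the authors, is another score without a filter. All 45 libraries had columns by name, and 0 columns had none. Exons shared by isoforms may have been counted more than once and the use of strand in counting is not stated, so intervals are too narrow and Dll1, Notch1, Notch2, Notch3 and Hes5, whose exons overlap those of another gene, are uncertain to that extent. Levels are therefore not compared between genes.

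The groups follow the stage and chase time in the labels. The members and all gene lists and motifs were chosen with earlier results of these data known. All 10 members are named, with those of 49 other pathway genes that passed a log2 fold change of 1 at a stage step and, for each member, the 3 most alike genes, of which 1 is not reported here.

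Expression was tested on covered-T counts with edgeR's quasi-likelihood test (TMM, over 10 counts in all libraries of the fit, 1 fit over the stages at 0 h and 1 per stage over the chase; Benjamini-Hochberg over all genes tested, called at 0.05). Log2 fold changes are edgeR's. Their SE was derived from the test, as the absolute log2 fold change over the square root of the F statistic. The deposited rates were fitted anew with exp(-kx) by least squares with the study's filters (over 500 covered Ts at all times, half-life under 24 h, R2 over 0.6, in all 3 replicates). 117523 of 117534 refits were within 1% of the authors' table. z-scored half-lives (9505 transcripts) and log2 label at 0 h relative to the library (12522 genes with over 500 covered Ts) were tested with limma, which took the place of maSigPro. The difference between stages of the change over 12 h was tested in 1 edgeR fit of the libraries at 0 and 12 h, added after seeing the data. The edgeR and limma tests and the half-life fit were checked on simulated data. The wells of a replicate share a pool of embryos, per the labels' protocols: within a stage, deviations of wells of one pool correlated with a median r of 0.44, 0.57 and 0.51, and 28, 28 and 30 of 30 comparisons were highest within the own pool. Letters do not pair stages (median r -0.01).

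Coordinates, 3′ UTRs and gene names came from GENCODE release M21 on GRCm38, which named 51678 of 53491 genes (96.6%); promoter and microRNA sequences came from RefSeq on GRCm38.p6. Tools were R 4.3.3, edgeR 4.0.16, limma 3.58.1, DESeq2 1.42.0, Python 3.11.15, numpy 2.4.6, pandas 2.3.3, scipy 1.17.1 and matplotlib 3.10.9. Alternatives were another normalization, DESeq2, recovered reads, no filter, the pool or letter as a block, other half-life fits and filters, the 12 h libraries, and leaving out each replicate.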

Additional observations from a re-analysis of the deposited data

Results flagged for a closer look

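The change in level between 0 and 12 h of chase differed between stages for 6 of the Notch genes, by a test of the difference itself (edgeR's quasi-likelihood test, adjusted p under 0.05), against 5.32% of 17224 genes between E11.5 and E14.5. Leaving out one pool made them 2 (without E14.5 C) to 6, with 3 without E11.5 B. At E14.5 the log2 change was more positive than at E11.5 by 0.45 in Dll1, 0.86 in Dll3, 0.51 in Hes1, 0.94 in Hes5 and 0.63 in Hey1, and that of Notch2 was more negative, at -0.40. At E16.5, where 4 members were called against 7.36% of genes (3 to 5 without one pool), it was more positive than at E11.5 by 0.63 in Dll1, 0.54 in Hes1, 1.33 in Hes5 and 0.95 in Hey1. In all 3 pools Hes5 fell at E11.5 and rose at E14.5 and at E16.5. The comparison of E14.5 and of E16.5 with E11.5 shares the E11.5 libraries.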

How the results depend on the processing

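At the stage steps the counts of members and of genes called moved by less than 1.5 times under every alternative run, and no called value changed sign. With the pool as a replicate block, genes called at 12 h of chase at E14.5 went from 2702 to 4966, members higher at E16.5 from 3 to 5, and genes called at 2 h from 238, 248 and 1045 at the 3 stages to 786, 1381 and 2638 (DESeq2 gave 555, 732 and 1718). For the difference between stages of the change over 12 h, the same block, added after seeing the data, gave 2068 genes in place of 916 (E14.5 minus E11.5), 672 in place of 74 (E16.5 minus E14.5, with 3 members in place of 0) and 2806 in place of 1267 (E16.5 minus E11.5). Transcripts called for relative half-life, 299, became 2296 in hours without scaling, 547 at R2 over 0.8, and 0 with the letter as a replicate block, a letter that does not pair stages. The straight-line fit called 1 member and gave 0 replicates with Hes1 and Hes5 below the receptors, 4 members below the median at E11.5 and 0 at E16.5. The cause of these shifts was not tested. The replicate block changed no other call than these and those given beside the results.

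Leaving out one replicate gave ranges of 1443 to 3974, 750 to 1735 and 2577 to 2900 genes called at 12 h at the 3 stages, with 3 to 5, 0 to 1 and 1 to 2 members lower and, at E11.5, 0 to 1 higher. At 2 h it gave 0 to 248, 0 to 146 and 79 to 239 genes. The differences between stages ranged from 507 to 837 genes and 2 to 6 members (E14.5 minus E11.5), from 13 to 122 genes (E16.5 minus E14.5) and from 617 to 1531 genes and 3 to 5 members (E16.5 minus E11.5). The count for relative half-life ranged from 3 (without E16.5 replicate B) to 265, and was 164 and 143 when E11.5 A or B was left out, 104 and 197 for E14.5 A or B, and 24 and 27 for E16.5 A or C. That for label at 0 h ranged from 1378 to 2216.

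Depth limits the late chase times most, where Hes1 rested on as few as 4 converted Ts and Jag1 on as few as 1. With 3 replicates per group, an exact permutation test of one value cannot go below p = 0.1.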
